A study of Mus musculus with 9 samples.

Results

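The transforming growth factor beta (TGFβ) pathway was followed through 10 of the 19369 genes listed in the RNA-Seq data of the developing mouse cornea. These are the 3 ligand genes *Tgfb1*, *Tgfb2* and *Tgfb3*, the 3 receptor genes *Tgfbr1*, *Tgfbr2* and *Tgfbr3*, the signal-carrying Smads *Smad2*, *Smad3* and *Smad4*, and the inhibitory *Smad7*. They were chosen by name as the core of the pathway, with earlier results of these data known. All 10 were found, matched by Entrez Gene identifier. The samples came from wild-type C57BL/6 mouse embryos with no transgene, deletion or treatment, in 3 replicates at each of embryonic days E10.5, E14.5 and E16.5. At E10.5 the sample was the periocular neural crest (pNC), the mesenchyme that surrounds the early eye, freed with dispase from the ectoderm, lens vesicle and optic cup. At E14.5 and E16.5 it was the whole cornea, with its epithelium, so the tissue changed together with the stage and their effects cannot be told apart. Every sample pooled tissue from many eyes, and in such bulk samples fewer cells of a type and less RNA per cell cannot be told apart.

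TGFβ ligands are secreted in a latent form, bound to their own propeptide and to latent TGFβ binding proteins in the matrix, and must be released to signal. The active ligand binds TGFBR2, which then phosphorylates and activates TGFBR1, while TGFBR3 (betaglycan) presents ligand, above all TGFβ2, to them. Activated TGFBR1 phosphorylates SMAD2 and SMAD3, which join SMAD4 and enter the nucleus, and SMAD7 competes for the receptor and sends it for degradation. In the eye the pathway acts on the neural crest cells that form the corneal stroma and endothelium, and it is known for inducing collagens and other matrix genes.

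Values are FPKM (fragments scaled to the kilobases of transcript and to the mapped fragments of the library), a per-length scale that allows levels of different genes to be set side by side. Over all samples the 10 genes lay between 2.54 and 47.13 FPKM and between 57 and 2350 fragments, from libraries of 8745161 to 9069023 fragments, so each gene was well above the 3 counts taken as a floor. Differences between stages were tested with edgeR's quasi-likelihood test, with p-values adjusted by the Benjamini-Hochberg method over all 14771 genes tested. "Rose" and "fell" are used of genes with an adjusted p under 0.05, and "passed both thresholds" of those that had also moved at least 1 unit on the log2 scale in either direction. The 3 comparisons share samples with one another (E10.5 to E14.5 and E10.5 to E16.5 share their E10.5 samples, for example), so they are not independent.

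The dissected tissues carried the markers of their labels. The summed FPKM of 7 corneal epithelium markers (*Krt5*, *Krt12*, *Krt14*, *Krt15*, *Pax6*, *Cdh1*, *Epcam*) ran from 30.58 to 38.49 at E10.5, from 619.33 to 2087.6 at E14.5, then from 5215.57 to 7558.62 at E16.5, and none was listed at 0 in a corneal sample. The 4 keratocyte and stroma markers (*Kera*, *Lum*, *Dcn*, *Aldh3a1*) summed to 52.03 to 59.52, to 1342.8 to 3742.72 and to 4630.01 to 4727.79 at the same stages. The 5 blood vessel markers (*Pecam1*, *Cdh5*, *Kdr*, *Tek*, *Tie1*) went the other way, from 75.68 to 131.52 at E10.5 to 22.58 to 34.57 at E16.5. *Alx1*, a transcription factor gene that marks pNC, went from 43.43 to 62.45 FPKM at E10.5 to at most 1.46 in any corneal sample. Macrophage markers summed to 19.92 to 41.54 over all samples, pigment epithelium and retina markers to 21.51 to 73.21, and lens markers to at most 3.99. Red blood cell markers went from 5039.16 to 7877.97 at E10.5 to 648.7 to 1356.99 at E16.5, and *Myod1*, *Myog* and *Myf5* of the muscle markers were listed at 0 in all 6 corneal samples.

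One library stood apart. E14.5 replicate 1 held 101.52 FPKM of *Krt12* and 802.93 of *Kera*, the keratin and keratan sulfate proteoglycan that mark the differentiated corneal epithelium and stroma, where the other E14.5 samples held 0.62 and 2.06 of *Krt12* and 83.13 and 151.16 of *Kera*. Its *Alx4* was 5.18 FPKM against 23.29 and 20.08, and its vessel markers summed to 41.88 against 71.36 and 78.56. On each of these measures it lay on the E16.5 side of the other E14.5 samples. Some other markers went the other way. Its *Epcam* was 41.39 FPKM against 37.99 and 36.47, with 23.49 to 27.86 at E16.5. Its macrophage markers summed to 41.54 against 32.76 and 34.36, with 19.92 to 25.44 at E16.5. Counts of genes and tests of the 10 genes that touch E14.5 are therefore also given without it. The labels name no batch, and the part that tissue makeup has in the results was not tested.

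Past both thresholds in at least 1 comparison, *Tgfbr2* and *Tgfb3* rose and *Smad7* fell between pNC and cornea. *Tgfb2* and *Tgfbr3* changed past both between the corneal stages, and the *Tgfb2* call depended on single samples, as given below. From E10.5 to E14.5, 2 of 10 rose past both thresholds, *Tgfb3* and *Tgfbr2*, and 0 fell, where 13.6% of all genes tested rose and 7.97% fell in this way. From E10.5 to E16.5, 1 rose (*Tgfbr2*) and 1 fell (*Smad7*), against 19.4% and 15.4% of all genes. From E14.5 to E16.5, 1 rose (*Tgfbr3*) and 1 fell (*Tgfb2*), against 6.26% and 5.47%. By adjusted p alone, 3 rose and 2 fell from E10.5 to E14.5 (28.9% and 27.5% of all genes, 56.4% in either direction), 4 rose and 4 fell from E10.5 to E16.5 (35.2% and 34.7%, 69.8% in either direction), and 2 rose and 3 fell from E14.5 to E16.5 (17.5% each way, 35% in either direction). The median log2 fold change of the 10 genes was -0.17, -0.19 and -0.11 in these comparisons, beside 0.01, 0.00 and -0.02 for all genes tested. These shares are near the background, and nothing is read from them about the list. Without E14.5 replicate 1 the counts past both thresholds were 3 up and 0 down from E10.5 to E14.5, where 12.4% and 7.47% of all genes were called, with *Tgfb2* as the added gene, and again 1 up and 1 down in each of the other comparisons, against 19.6% and 15.9% of all genes from E10.5 to E16.5 and 8.71% and 7.04% from E14.5 to E16.5.

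**Figure D1:**
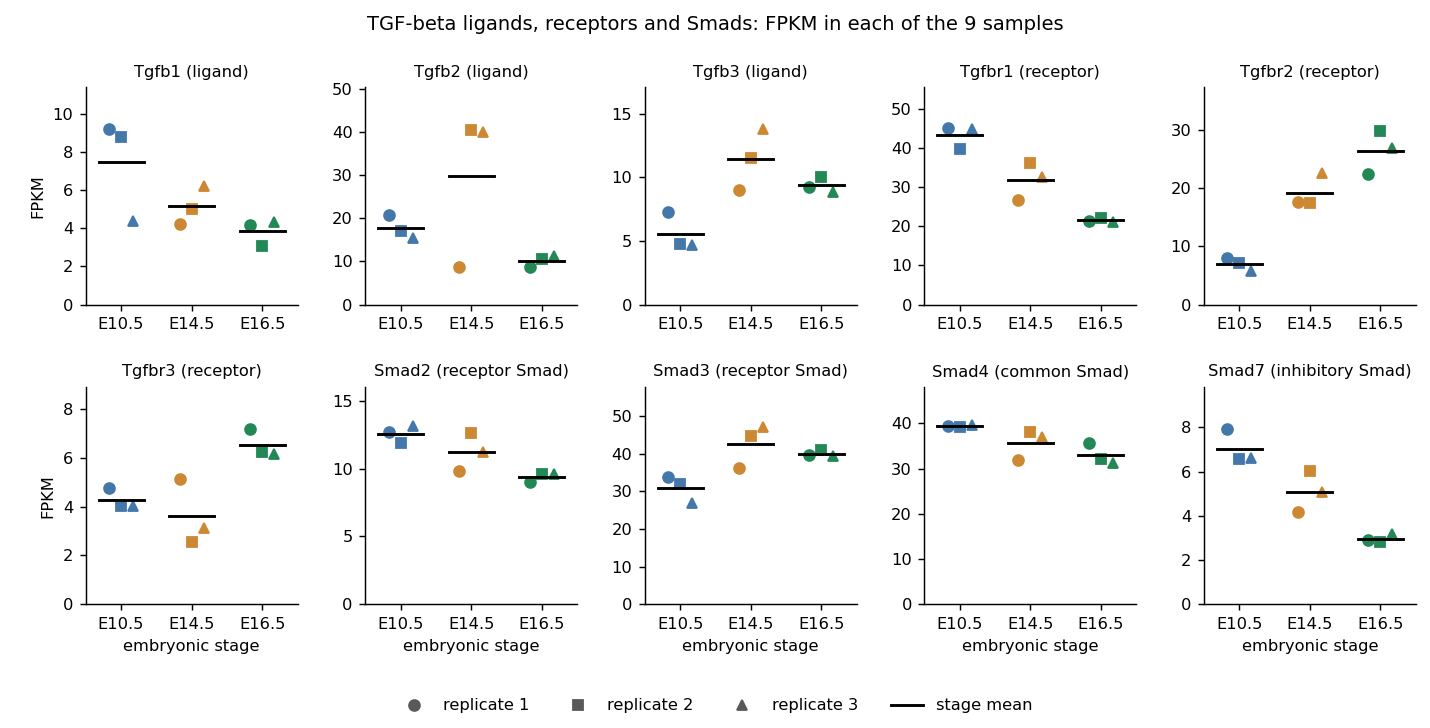
FPKM (vertical axis of each panel, from 0) of each of the 10 genes at the 3 stages. Each symbol is 1 sample, its shape giving the replicate number, and the bar is the mean of 3 samples. *Tgfbr2* climbs and *Tgfbr1* and *Smad7* descend over the stages, while *Tgfb2* at E14.5 splits into 1 sample at 8.76 and a pair at 40.03 and 40.37.

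Among the ligands, *Tgfb2* had the highest mean at every stage and the widest spread within one, at E14.5. It encodes the ligand that depends most on betaglycan and lies on chromosome 1 (186622787 to 186709697, GRCm38). Its FPKM was 20.81, 17.14 and 15.34 in the 3 E10.5 samples, 8.76, 40.37 and 40.03 in the E14.5 samples, and 8.69, 10.45 and 11.23 in the E16.5 samples. All E10.5 samples were above all E16.5 samples, while at E14.5 a pair of samples was the highest of all and replicate 1 lay among the E16.5 values. The stage means were 17.8 ± 2.79, 29.7 ± 18.2 and 10.1 ± 1.30 FPKM (SD, n = 3 each). The fall from E14.5 to E16.5 passed both thresholds, with a log2 fold change of -1.40 (SE 0.43, edgeR adjusted p = 0.0293). The log2 fold change was 0.73 (SE 0.42, edgeR adjusted p = 0.164) from E10.5 to E14.5 and -0.66 (SE 0.43, edgeR adjusted p = 0.196) from E10.5 to E16.5.

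E14.5 replicate 1 bore on the *Tgfb2* calls. Without it, the log2 fold change from E10.5 to E16.5 stayed at -0.66 and both others moved away from 0. *Tgfb2* then rose 2.25-fold from E10.5 to E14.5 (log2 fold change 1.17, edgeR adjusted p = 7.96e-06), fell from E14.5 to E16.5 (log2 fold change -1.83, edgeR adjusted p = 5.94e-07), and fell from E10.5 to E16.5 (log2 fold change -0.66, edgeR adjusted p = 0.000288), since the single fit takes its spread from all stages. The call from E14.5 to E16.5 was in turn lost without E14.5 replicate 2 (adjusted p = 0.104), E14.5 replicate 3 (0.106), or E16.5 replicate 1 (0.0972), 2 (0.0747) or 3 (0.0676), and in limma on log2(FPKM + 1), where the adjusted p was 0.0655. A replicate 1 value this far below both other E14.5 samples was rare, and gaps with replicate 1 above the others were not counted. Of 10084 genes with a mean of at least 5 FPKM at E14.5, 19 (0.188%) were at least 4-fold lower in replicate 1 than in both other samples, a limit chosen after the *Tgfb2* values were seen. The corneal epithelium and keratocyte marker sums of that library were 2087.6 and 3742.72 FPKM, against 619.33 and 743.96 for the epithelium and 1342.8 and 1507.84 for the stroma in the others, and their part in its *Tgfb2* value was not tested.

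**Figure D2:**
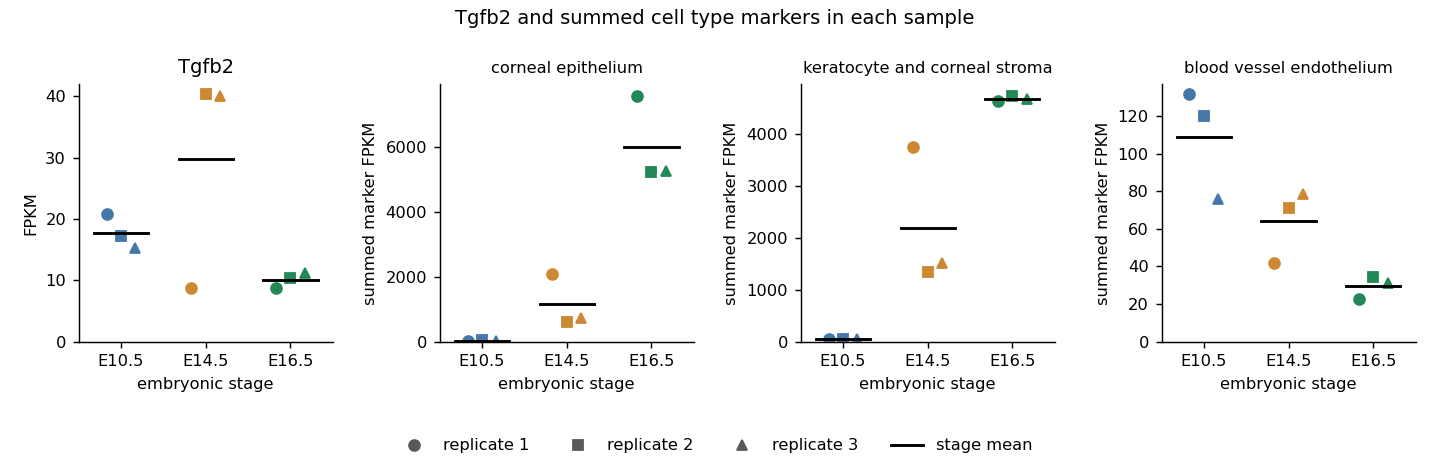
FPKM of *Tgfb2* and summed FPKM of 3 marker lists (vertical axes, from 0) in each of the 9 samples, by stage. In E14.5 replicate 1 (circle) *Tgfb2* is at 8.76, near the E16.5 samples, and the epithelium, keratocyte and vessel markers are also shifted toward their E16.5 values.

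*Tgfb3* was higher in the cornea than in pNC. This ligand gene lies on chromosome 12 (86056743 to 86079041). Its FPKM was 7.26, 4.77 and 4.67 at E10.5, 8.97, 11.50 and 13.76 at E14.5, then 9.27, 10 and 8.86 at E16.5, so that all 6 corneal samples were above all 3 E10.5 samples. *Tgfb3* rose 2.03-fold from E10.5 to E14.5 (log2 fold change 1.02, SE 0.20, edgeR adjusted p = 0.00128) and 1.87-fold to E16.5 (log2 fold change 0.90, SE 0.20, edgeR adjusted p = 0.00195). Between E14.5 and E16.5 the ranges overlapped and the log2 fold change was -0.12 (95% confidence interval -0.55 to 0.30). The E14.5 value sat close to the 2-fold limit, falling to 0.92, 0.90 and 0.85 on the log2 scale without E10.5 replicate 2, E10.5 replicate 3 or E14.5 replicate 3, with adjusted p of 0.00799, 0.00712 and 0.00485. Without E14.5 replicate 1 the log2 fold change was 1.18 from E10.5 to E14.5 (edgeR adjusted p = 0.000112) and -0.28 from E14.5 to E16.5 (edgeR adjusted p = 0.2).

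*Tgfb1*, whose product is the ligand best known from wound healing and immune cells, was the least abundant ligand in the cornea. Its FPKM was 9.20, 8.80 and 4.39 at E10.5, 4.25, 5.0 and 6.21 at E14.5, then 4.16, 3.08 and 4.36 at E16.5. Replicate 3 at E10.5 was about as low as the corneal samples, and all E10.5 values were still above all E16.5 values. *Tgfb1* fell by 0.80 on the log2 scale from E10.5 to E16.5 (SE 0.28, edgeR adjusted p = 0.0234), which was under the 2-fold limit. To E14.5 its log2 fold change was -0.54 (SE 0.27, edgeR adjusted p = 0.110) and became -0.82 (adjusted p = 0.00794) without E10.5 replicate 3. Leaving out E14.5 replicate 1 gave -0.42 to E14.5 (edgeR adjusted p = 0.225) and -0.38 from there to E16.5 (edgeR adjusted p = 0.310). The fall to E16.5 no longer passed without E10.5 replicate 1 (adjusted p = 0.0953), E10.5 replicate 2 (0.0851) or E16.5 replicate 2 (0.0882). E10.5 replicate 3 also held less of the 5 vessel markers (75.68 FPKM in sum against 131.52 and 120.05) and 0.61 FPKM of the optic cup gene *Rax* against 5.24 and 6.63. Whether these bear on its *Tgfb1* level was not tested.

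The summed FPKM of the 3 ligands was 30.8 ± 6.44, 46.3 ± 21.1 and 23.4 ± 1.17 at the 3 stages. *Tgfb2* made up 55.8% to 62.9% of that sum at E10.5, 39.9% in E14.5 replicate 1 and 71.0% and 66.7% in the other E14.5 samples, and 39.3% to 45.9% at E16.5. *Tgfb3* made up 15.5% to 19.5% at E10.5, compared with 36.2% to 42.5% at E16.5, so the E16.5 cornea held *Tgfb2* and *Tgfb3* at nearly the same level (10.1 ± 1.30 and 9.38 ± 0.577 FPKM). The mean share of *Tgfb2* at E16.5 differed from that at E10.5 by -15.0 percentage points, and the samples did not overlap. The exact two-sided permutation test gave p = 0.1 for that difference, the smallest that 3 samples against 3 can give, and 0.15 after adjustment over the 9 ratio comparisons made.

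The receptors moved in opposite directions. *Tgfbr2* encodes the type 2 receptor that binds ligand first, and it showed the largest log2 fold change of the 10 genes. Its FPKM was 7.98, 7.19 and 5.73 at E10.5, 17.62, 17.55 and 22.63 at E14.5, then 22.45, 29.92 and 26.85 at E16.5. All corneal samples were above all pNC samples, and E14.5 and E16.5 overlapped only through a single value of 22.63 against 22.45. *Tgfbr2* rose 2.76-fold from E10.5 to E14.5 (log2 fold change 1.46, SE 0.16, edgeR adjusted p = 3.44e-05) and 4.22-fold to E16.5 (log2 fold change 2.08, SE 0.16, edgeR adjusted p = 1.3e-06). The rise from E14.5 to E16.5 was smaller, 1.53-fold (log2 fold change 0.61, SE 0.15, edgeR adjusted p = 0.0115), and the adjusted p was 0.0522 without E16.5 replicate 2. When E14.5 replicate 1 was left out, the log2 fold change was 1.53 from E10.5 to E14.5 (edgeR adjusted p = 8.7e-06) and 0.55 from E14.5 to E16.5 (edgeR adjusted p = 0.0132). Both rises from E10.5 passed both thresholds in every alternative tried, the NOISeq criterion included.

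*Tgfbr2* is listed with 2 transcripts, and for a gene with several the authors' files give a transcript length weighted by the abundance of each. That length was 4728, 4728 and 4742.71 bases in the E10.5 samples, 4772.86, 4750.72 and 4759.92 at E14.5, then 4752.08, 4752.64 and 4755.2 at E16.5. All 6 corneal samples thus had a greater listed length than all 3 pNC samples, from 242 to 342 fragments per sample at E10.5 and 740 to 1267 in the cornea. The same pattern was found in 8.03% of 2203 genes with a varying length and at least 100 counts in every sample, and the opposite one in 5.58%, so it is not rare, and it was looked for after the lengths had been seen. In the GENCODE annotation of GRCm38, the coding sequences of the gene's 592-codon and 567-codon forms differ by 1 cassette exon of 75 bases, exon 2 of 8, at chr9:116158271-116158345 on the minus strand within the gene (116087695 to 116175363). It lies in the part of the gene for the extracellular side of the receptor, and it is shown as the coding difference between the forms. The exon is in capitals, with 15 bases of the neighboring coding exons of the transcript on each side in lower case, 5′ to 3′ on the gene's strand.
*Tgfbr2* cassette exon: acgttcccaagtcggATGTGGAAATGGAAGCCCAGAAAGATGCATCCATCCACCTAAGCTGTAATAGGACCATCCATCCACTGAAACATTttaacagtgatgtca
Its length is a multiple of 3, so the reading frame is kept with or without it. The lengths of the single transcripts behind the files were not used here, and no share of either form was derived.

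*Tgfbr1*, the kinase that carries the signal from TGFBR2 to the Smads, went down while its partner went up. Its FPKM was 45.15, 39.87 and 44.94 at E10.5, 26.67, 36.37 and 32.65 at E14.5, then 21.38, 22.16 and 21.24 at E16.5, with no overlap between any of the stages. Such separation was seen in 61%, 77.2% and 53.2% of all genes tested from E10.5 to E14.5, from E10.5 to E16.5 and from E14.5 to E16.5. *Tgfbr1* fell in all of these comparisons, with log2 fold changes of -0.46 (SE 0.11, edgeR adjusted p = 0.00539), -0.86 (SE 0.11, edgeR adjusted p = 5.03e-05) and -0.40 (SE 0.11, edgeR adjusted p = 0.0192). None of these passed the 2-fold limit, although the fall from E10.5 to E16.5 did so when libraries were scaled by their totals (-1.01). With E14.5 replicate 1 left out they were -0.34 to E14.5 (edgeR adjusted p = 0.00482) and -0.52 from there to E16.5 (edgeR adjusted p = 0.000308). The fall from E14.5 to E16.5 no longer passed without E14.5 replicate 2 (adjusted p = 0.0815), E14.5 replicate 3 (0.0615), E16.5 replicate 1 (0.0656) or E16.5 replicate 3 (0.0654).

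Within a sample, the ratio of *Tgfbr2* to *Tgfbr1* FPKM does not depend on library scaling. It was 0.162 ± 0.0295 at E10.5, 0.612 ± 0.113 at E14.5, then 1.22 ± 0.155 at E16.5 (SD, n = 3 each). The samples ran from 0.128 to 0.180, from 0.483 to 0.693 and from 1.05 to 1.35, and no stage overlapped with another. At E10.5 transcripts of *Tgfbr1* thus outnumbered those of *Tgfbr2* in every sample, and at E16.5 the order was the other way in every sample. For each pair of stages the exact permutation test gave p = 0.1, the smallest possible with 3 against 3, and 0.15 when adjusted over the 9 ratio comparisons.

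**Figure D3:**
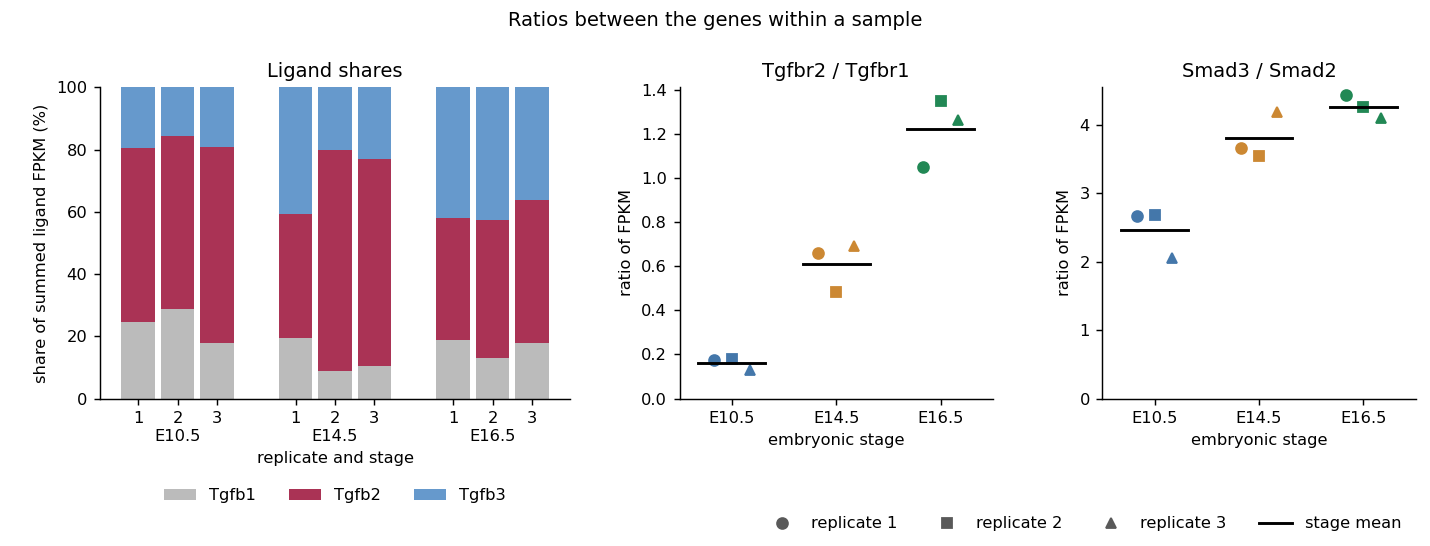
Left, share of each ligand in the summed FPKM of the 3 ligands (percent) for each replicate. Middle and right, the ratio of *Tgfbr2* to *Tgfbr1* FPKM and of *Smad3* to *Smad2* FPKM in each sample (symbols) with the stage mean (bar), by embryonic stage. The receptor ratio passes 1 only in the 3 E16.5 samples.

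*Tgfbr3*, the co-receptor that presents TGFβ2, was the least abundant receptor in the cornea and was highest at E16.5. Its FPKM was 4.75, 4.02 and 4.01 at E10.5, 5.13, 2.54 and 3.14 at E14.5, then 7.18, 6.25 and 6.17 at E16.5. All E16.5 samples were above all others, and at E14.5 replicate 1 again lay apart, here above the other samples of its stage. *Tgfbr3* rose 2.03-fold from E14.5 to E16.5 (log2 fold change 1.02, SE 0.21, edgeR adjusted p = 0.00431) and 1.70-fold from E10.5 to E16.5 (log2 fold change 0.76, SE 0.21, edgeR adjusted p = 0.00656). From E10.5 to E14.5 the log2 fold change was -0.26 (SE 0.21, edgeR adjusted p = 0.323). Without E14.5 replicate 1, *Tgfbr3* fell by 0.59 from E10.5 to E14.5 (edgeR adjusted p = 0.00348) and rose by 1.35 from E14.5 to E16.5 (edgeR adjusted p = 8.7e-06). The rise from E14.5 to E16.5 went under the 2-fold limit without E14.5 replicate 2 (0.81), E14.5 replicate 3 (0.95) or E16.5 replicate 1 (0.96), and with libraries scaled by their totals (0.86), always with an adjusted p under 0.05. In the E14.5 samples *Tgfb2* and its co-receptor thus lay on opposite sides of their stage: replicate 1 was lowest in the ligand gene and highest in the co-receptor gene.

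Of the Smads that carry the signal, *Smad3* rose and *Smad2* and *Smad4* moved little. *Smad3* FPKM was 33.84, 31.99 and 26.92 at E10.5, 36.13, 44.75 and 47.13 at E14.5, then 39.73, 41.01 and 39.42 at E16.5, and all corneal samples were above all E10.5 samples. It rose 1.37-fold from E10.5 to E14.5 (log2 fold change 0.45, SE 0.12, edgeR adjusted p = 0.00786) and 1.44-fold to E16.5 (log2 fold change 0.52, SE 0.12, edgeR adjusted p = 0.00239). From E14.5 to E16.5 its change on the log2 scale was 0.07 (95% confidence interval -0.19 to 0.33), and its sign turned with the scaling of the libraries (-0.09 with library totals). The rise to E14.5 was 0.57 (edgeR adjusted p = 0.000333) and the later change -0.043 (edgeR adjusted p = 0.748) without E14.5 replicate 1.

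*Smad2*, the other receptor-activated Smad, was at 12.71, 11.92 and 13.14 FPKM at E10.5, at 9.86, 12.64 and 11.26 at E14.5, then at 8.98, 9.62 and 9.64 at E16.5. The E16.5 samples were below all others. *Smad2* fell by 0.27 from E10.5 to E16.5 (SE 0.10, edgeR adjusted p = 0.0273), and this did not pass without E10.5 replicate 1 (adjusted p = 0.0647), E10.5 replicate 3 (0.0638), E16.5 replicate 1 (0.1) or E16.5 replicate 3 (0.0576). The log2 fold changes of -0.18 from E10.5 to E14.5 and -0.10 from E14.5 to E16.5 had edgeR adjusted p of 0.145 and 0.477, and became -0.082 and -0.19 (edgeR adjusted p = 0.422 and 0.0818) without E14.5 replicate 1. The ratio of *Smad3* to *Smad2* FPKM was 2.46 ± 0.361, 3.80 ± 0.342 and 4.26 ± 0.168 at the 3 stages (SD, n = 3 each), and all corneal samples, from 3.54 to 4.42, were above the pNC samples, from 2.05 to 2.68. The exact permutation test gave p = 0.1 for both comparisons with E10.5 (0.15 adjusted) and p = 0.2 between E14.5 and E16.5 (0.257 adjusted).

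*Smad4*, the common partner of the receptor-activated Smads, was the steadiest member. At E10.5 it was at 39.39, 39.24 and 39.61 FPKM, with an SD of 0.186, and it was at 31.85, 38.17 and 36.99 at E14.5, then at 35.60, 32.12 and 31.34 at E16.5. All corneal samples were lower in FPKM than all pNC samples, yet after scaling of the libraries the log2 fold changes were -0.16 (95% confidence interval -0.35 to 0.04) and -0.11 (-0.30 to 0.09) from E10.5 to E14.5 and E16.5, with edgeR adjusted p of 0.151 and 0.297. With libraries scaled by their totals, as FPKM is, *Smad4* was lower at E16.5 than at E10.5 by a log2 fold change of -0.26 (adjusted p = 0.0207), so this call depends on the scaling. That scaling moved the median of all genes by -0.15 from E10.5 to E16.5 and by -0.16 from E14.5 to E16.5. From E14.5 to E16.5 the log2 fold change of *Smad4* was 0.05 (95% confidence interval -0.15 to 0.24), and it turned to -0.11 with library totals. It was -0.032, and -0.075 from E10.5 to E14.5, without E14.5 replicate 1 (edgeR adjusted p = 0.770 and 0.429).

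*Smad7*, the feedback inhibitor that the pathway itself induces, fell at each step. Its FPKM was 7.93, 6.57 and 6.63 at E10.5, 4.15, 6.04 and 5.08 at E14.5, then 2.91, 2.81 and 3.17 at E16.5, and no stage overlapped with another. It fell by 1.10 on the log2 scale from E10.5 to E16.5, which passed both thresholds (SE 0.15, edgeR adjusted p = 6.11e-05). The steps were -0.48 from E10.5 to E14.5 (SE 0.14, edgeR adjusted p = 0.0146) and -0.62 from E14.5 to E16.5 (SE 0.15, edgeR adjusted p = 0.00986). Both steps also passed without E14.5 replicate 1, at -0.35 (edgeR adjusted p = 0.0334) and -0.75 (edgeR adjusted p = 0.000647). The first step no longer passed without E10.5 replicate 1 (adjusted p = 0.0630). By the NOISeq criterion as recomputed here, *Smad7* had a probability of 0.796 from E10.5 to E16.5, just under the limit of 0.8. *Tgfbr1* had 0.857 and was the 1 member counted as lower. The paper, which used NOISeq, reports *Smad7* as downregulated, so the recomputation did not match its call for this gene.

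**Figure D4:**
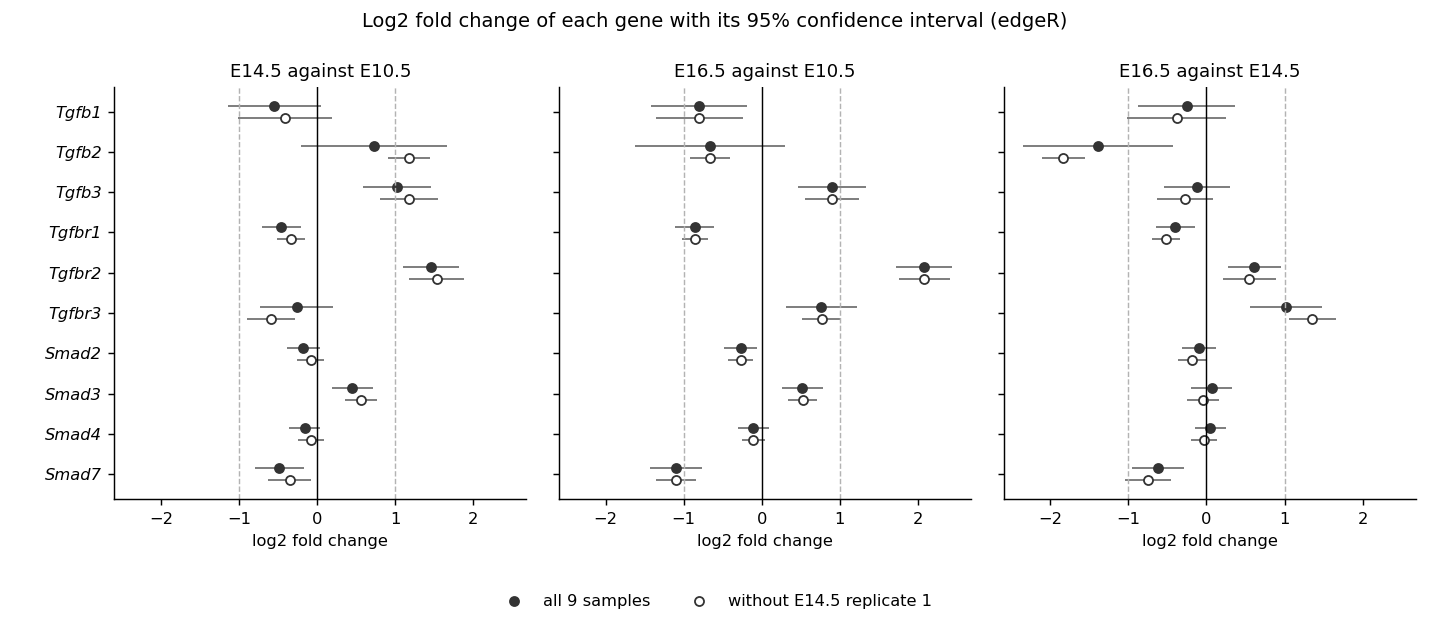
Log2 fold change (horizontal axis) of each of the 10 genes in the 3 comparisons, with 95% confidence intervals from edgeR, for all 9 samples (filled) and without E14.5 replicate 1 (open). Dashed lines mark log2 fold changes of -1 and 1. The interval of *Tgfb2* shrinks without that sample. For *Tgfbr3* from E10.5 to E14.5 it goes from -0.73 to 0.21 with all samples to -0.89 to -0.29 without it. Every open estimate lies within the interval from all 9 samples.

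Other genes of the pathway, 59 in 6 lists, were set beside these 10. From E10.5 to E14.5, 19 of the 59 rose and 6 fell past both thresholds, from E10.5 to E16.5 24 rose and 7 fell, and from E14.5 to E16.5 13 rose and 3 fell, against the shares of all genes given above. Without E14.5 replicate 1 these were 20 and 7, 24 and 7, and 15 and 3. The median log2 fold change of the 59 was 0.49, 0.53 and 0.01. Genes that store, release or bind ligand and target genes made up most of the rises, as the lists show in turn. The counts of each list are to be set against the same shares of all genes. By adjusted p alone those were 56.4%, 69.8% and 35% in either direction.

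Of 11 genes for latency and activation, 5 rose and 2 fell past both thresholds from E10.5 to E14.5, 7 rose and 1 fell from E10.5 to E16.5, and 2 rose and 0 fell from E14.5 to E16.5. *Ltbp1*, which ties latent ligand to the matrix, was at 7.59, 6.14 and 4.87 FPKM at E10.5, 21.44, 31.09 and 36.61 at E14.5, then 29.50, 42.94 and 39.44 at E16.5. It rose by 2.23 (SE 0.24, edgeR adjusted p = 2.51e-05) to E14.5 and 2.67 (SE 0.24, edgeR adjusted p = 3.02e-06) to E16.5, and all corneal samples were above all pNC samples. *Ltbp3* rose by 2.41 and 2.95 in the same comparisons, from 6.37 ± 1.45 FPKM at E10.5 to 44.5 ± 1.44 at E16.5. *Ltbp4* rose late, by 2.55 from E14.5 to E16.5 (edgeR adjusted p = 0.00128), and at E14.5 its replicate 1 was at 14.13 FPKM against 3.34 and 6.02. *Thbs1*, an activator of latent ligand, rose by 0.69 from E10.5 to E16.5 (edgeR adjusted p = 0.00689), and *Itgb6*, a chain of an epithelial activating integrin, rose by 2.37 from E10.5 to E14.5 and by 2.20 to E16.5 (edgeR adjusted p = 0.0077 and 0.00975), although it was at or under 0.52 FPKM in every sample. Without E14.5 replicate 1 the counts of this list were 6 up and 2 down, 7 up and 1 down, and 3 up and 0 down.

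The 6 extracellular binders included the strongest rises of the pathway. *Dcn*, the proteoglycan decorin that binds TGFβ, was between 4.74 and 5.04 FPKM at E10.5, at 1445.24, 507.08 and 572.29 at E14.5, then between 1734.01 and 1928.73 at E16.5. It rose by 7.40 and 8.69 on the log2 scale to E14.5 and E16.5 (edgeR adjusted p = 4.05e-07 and 1.13e-07). *Dcn* is also among the keratocyte markers, so its rise goes with the marker sum given above. *Aspn*, a relative of decorin, rose by 2.15 from E14.5 to E16.5 (edgeR adjusted p = 0.00283). In all, 5, 5 and 3 of the 6 rose past both thresholds in the 3 comparisons and 0 fell, and without E14.5 replicate 1 it was 5, 5 and 4.

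Of 8 other receptors and decoys, 0 rose and 1 fell past both thresholds from E10.5 to E14.5, 1 rose and 2 fell to E16.5, and 0 rose and 1 fell from E14.5 to E16.5, the same counts as without E14.5 replicate 1. By adjusted p alone these were 4 and 2, 4 and 4, and 2 and 2. *Bambi*, a pseudoreceptor without a kinase that blocks signaling, was the 1 gene of the list that fell past both thresholds in every comparison, and the activin receptor gene *Acvr2b*, named here after its values were seen, also fell in each by adjusted p (log2 fold changes of -0.72, -1.30 and -0.58, edgeR adjusted p = 0.000525, 5.29e-06 and 0.00642). The FPKM of *Bambi* was 10.59, 9.96 and 10.61 at E10.5, 2.56, 3.82 and 2.84 at E14.5, then 1.06, 0.91 and 1.37 at E16.5. *Bambi* fell by 3.07 on the log2 scale from E10.5 to E16.5 (SE 0.18, edgeR adjusted p = 1.91e-07). *Acvr2a*, an activin receptor, rose by 1.15 over the same stages (edgeR adjusted p = 2.23e-05). *Eng*, the endothelial co-receptor endoglin, fell by 0.69 (edgeR adjusted p = 0.0133), and at E10.5 its replicate 3 was at 10.75 FPKM against 20.18 and 18.30, the same sample in which *Tgfb1* and the vessel markers were low.

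The other 4 Smads showed 0 genes past both thresholds in the first and last comparison and 1 fall from E10.5 to E16.5. The counts past both thresholds were the same without E14.5 replicate 1. The gene that fell past both thresholds, named here after its values were seen, was *Smad9*, which was at most at 1.47 FPKM in any sample. Counted by adjusted p alone, 0 rose and 1 fell, 0 rose and 3 fell, and 0 rose and 0 fell in the 3 comparisons. Among 14 Smad regulators, 0 rose and 2 fell, 1 rose and 3 fell, and 0 rose and 1 fell past both thresholds in the 3 comparisons, with and without E14.5 replicate 1. By adjusted p alone 4 rose and 6 fell, 4 rose and 8 fell, and 1 rose and 5 fell. *Mecom*, a repressor of SMAD3, went from 9.25, 11.07 and 11.21 FPKM at E10.5 to between 0.15 and 0.18 at E16.5, which was a change of -5.74 on the log2 scale (SE 0.38, edgeR adjusted p = 4.26e-07). *Cited1*, a transcriptional coactivator that works with SMAD4, fell by 3.66 from E10.5 to E14.5 (SE 0.43, edgeR adjusted p = 4.69e-05). *Nedd4l*, a ubiquitin ligase that acts on activated SMAD2 and SMAD3, rose by 1.68 from E10.5 to E16.5 (edgeR adjusted p = 1.25e-06). The corepressor *Ski* rose by 0.80 and its relative *Skil* fell by 0.76 over the same stages (edgeR adjusted p = 0.000426 and 0.000284), both under the 2-fold limit.

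Past both thresholds, the 16 known target genes held 9 rises and 1 fall from E10.5 to E14.5, 10 rises and 0 falls from E10.5 to E16.5, and 8 rises and 1 fall from E14.5 to E16.5. By adjusted p alone these were 12 and 1, 11 and 1, and 9 and 4. The falls past both thresholds from E10.5 to E14.5 were 2 without E14.5 replicate 1, and the other counts past both thresholds did not move. *Col1a1*, the collagen of the corneal stroma, was at 71.91, 60.57 and 34.98 FPKM at E10.5 and at 3521.56, 5029.03 and 4431.49 at E16.5, and its change was 6.43 on the log2 scale (SE 0.43, edgeR adjusted p = 4.41e-07). *Ccn2*, which is often read as a response to the pathway, did not pass the test. It was between 5.38 and 14.13 FPKM, with log2 fold changes of 0.49, 0.40 and -0.10 (edgeR adjusted p = 0.135, 0.208 and 0.798). *Tgfbi*, a secreted matrix protein abundant in the cornea, was at 61.67, 53.57 and 45.92 FPKM at E10.5, 7.35, 4.95 and 4.84 at E14.5, then 31.93, 24.11 and 25.30 at E16.5. It fell by 3.25 to E14.5 (SE 0.18, edgeR adjusted p = 3.06e-07) and rose by 2.41 from there to E16.5 (SE 0.18, edgeR adjusted p = 0.000138), and over the whole span from E10.5 to E16.5 it fell by 0.84 (edgeR adjusted p = 0.00064). *Cdkn1a*, a cell cycle inhibitor, rose by 3.0 from E14.5 to E16.5 (edgeR adjusted p = 0.000896), and *Tagln*, a smooth muscle protein, fell by 1.64 (edgeR adjusted p = 0.000833). Some genes of this list were named by the study from these same samples, as were some of the latency, binder, receptor and Smad regulator lists. The counts of these lists are therefore not independent evidence of a direction.

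**Figure D5:**
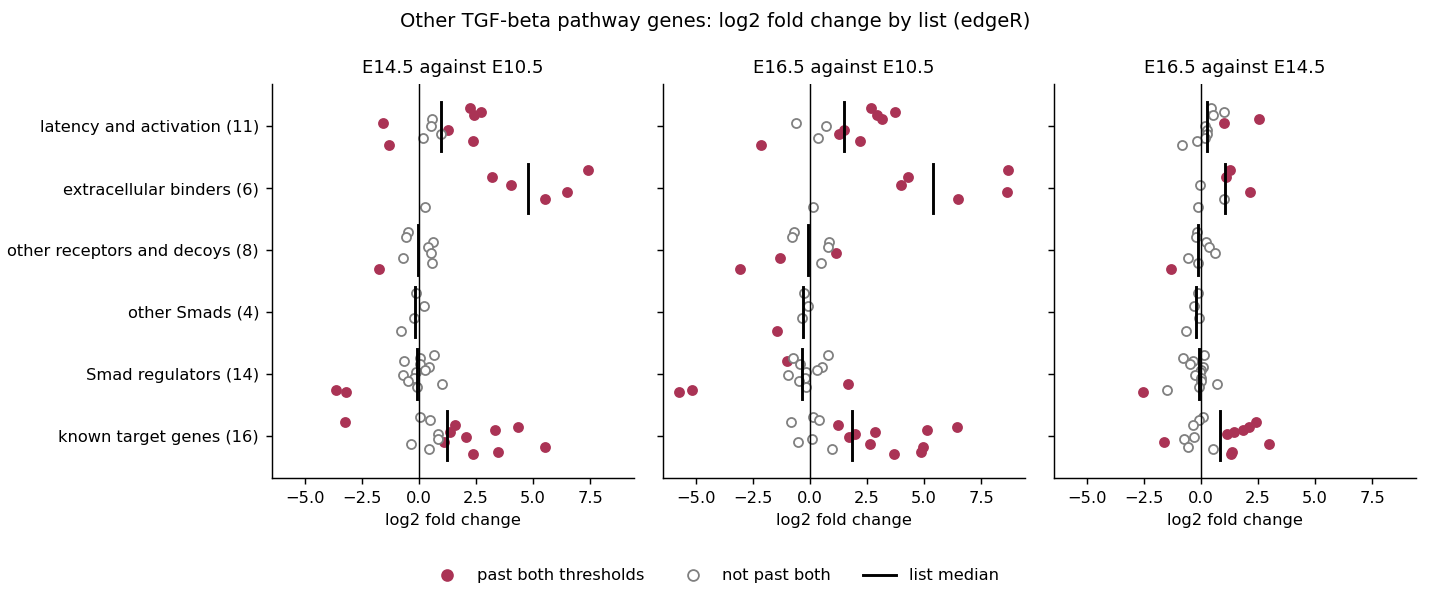
Log2 fold change (horizontal axis, edgeR) of the 59 other pathway genes in the 3 comparisons, 1 point a gene, by list with the number of genes in brackets. Filled points passed both thresholds and the vertical bar is the median of the list. The extracellular binders have the highest median, 4.76 and 5.40 in the comparisons with E10.5, and the other receptors, Smads and Smad regulators have medians between -0.34 and -0.04 there.

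The genes whose pattern over the 9 samples was most like that of a member were also listed, by the Pearson correlation of log2(FPKM + 1) among 10942 genes with at least 5 FPKM at some stage. The 9 samples are 3 stages of different tissue, so high values are common and no p is given. *Tgfb2* was closest to *Nfatc4* (r = 0.976), and *Tab2* was also among the closest (0.972). Both were lower in E14.5 replicate 1 than in the other E14.5 samples. *Tgfbr3* was closest to *Atp1b3* (r = 0.983), *L1cam* (0.982) and *Dgat2* (0.971), each of them higher in E14.5 replicate 1 than in the other E14.5 samples. *Tgfbr2* was closest to *Rrbp1* (r = 0.998), *Adcy2* (0.995) and *Apcdd1* (0.994), *Tgfb3* to *Notch2* (0.981), *Mmp11* (0.973) and *Glg1* (0.966), and *Smad7* to *Dcaf1* (0.995), *Zdhhc3* (0.992) and *Mcrs1* (0.991). *Nfatc4* ran only from 52.65 to 72.97 FPKM, so likeness in pattern here is not likeness in the size of the difference.

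By level, the order of the 10 genes changed with the stage. At E10.5 the highest means were those of *Tgfbr1* (43.3 ± 2.99 FPKM) and *Smad4* (39.4 ± 0.186), which were apart by a narrow margin, 39.87 against 39.61 in the nearest samples, and then *Smad3* (30.9 ± 3.58), and the lowest was *Tgfbr3* (4.26 ± 0.424), overlapping with *Tgfb3* (5.57 ± 1.47). At E14.5 *Smad3* (42.7 ± 5.79), *Smad4* (35.7 ± 3.36), *Tgfbr1* (31.9 ± 4.89) and *Tgfb2* (29.7 ± 18.2) led with overlapping samples. At E16.5 the order was *Smad3* (40.1 ± 0.843), *Smad4* (33.0 ± 2.27), *Tgfbr2* (26.4 ± 3.75) and *Tgfbr1* (21.6 ± 0.496), whose samples did not overlap between neighbors, and *Smad7* (2.96 ± 0.186) was the lowest, its samples overlapping with those of *Tgfb1* (3.87 ± 0.689). In *Tgfbr2* the share of listed genes that lay below it in a sample went from as little as 47.2% to as much as 85.5%, while *Smad4* stayed between 85.1% and 87.7%.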

How the data were processed

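RNA-Seq values of 9 samples were analyzed, 3 at each stage, as labeled. Per the methods, the authors filtered reads, used Bowtie 2 for mapping to reference genes, HISAT for mapping to the GRCm38 genome and RSEM for quantification. The authors deposited an expected count, an FPKM value and a transcript length for each gene of each sample, and the deposited length is in bases. Versions are not given in the sources used here, nor is the strandedness of the counting. A gene absent from a sample was taken as 0.

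Expected counts were rounded and tested with edgeR 4.0.16 in R 4.3.3, with filterByExpr by stage, TMM scaling, 1 quasi-likelihood model of stage over all 9 samples, 3 contrasts and Benjamini-Hochberg adjustment, after the same code had been tested on simulated data. Library totals were 8745161 to 9069023 counts. TMM factors were 0.918 to 0.940 at E16.5 and above 1 elsewhere. Means are given ± SD. Ratios were compared by exact two-sided permutation tests, written in Python 3.11.15 with numpy 2.4.6. The replicates are separate tissue pools, and their counts differed by more than sampling noise. Symbols came from RefSeq genes of GRCm38 by Entrez identifier, for 19312 of 19369 genes. The *Tgfbr2* exon came from GENCODE M21.

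The 10 genes and all lists were chosen with earlier results of these data known. Of the other pathway genes, those named are, per list and comparison, the called gene with the largest rise and with the largest fall among genes of at least 5 FPKM at either stage, and in every case *Ccn2*, *Tgfbi*, *Skil*, *Ski*, *Bambi*, *Eng*, *Ltbp1*, *Thbs1* and *Itgb6*. For each gene called in a comparison, the 3 most alike genes are named. A few genes that these rules or lists hold are not reported here.

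Alternatives were DESeq2 1.42.0, its size factors, library totals, no filter, no fold minimum, limma 3.58.1 on log2(FPKM + 1) and log2(FPKM + 0.1), the authors' NOISeq criterion recomputed from FPKM (zeros at 0.01, probability of at least 0.8), a replicate block, and each sample left out. The NOISeq probabilities came from code written for this report and do not reproduce every call of the paper. It reports *Tgfb3* as upregulated at E14.5 and E16.5 and *Smad7* as downregulated. The recomputation called neither gene. The labels number the replicates 1 to 3 at each stage without pairing them.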

Additional observations from a re-analysis of the deposited data

How the results depend on the processing

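Of 510 recomputed log2 fold changes of the 10 genes, 457 kept their direction and their side of the threshold, 34 lost the call, 8 gained it and 11 turned sign. The sign turned for *Tgfb3*, *Smad3* and *Smad4*, none past the test. From E14.5 to E16.5, *Smad3* turned to -0.092 with library totals, -0.080 and -0.082 with limma at the larger and smaller pseudocount and -0.091 with NOISeq, and ran from -0.043 to 0.17 with single samples left out (without E14.5 replicates 1 and 3). *Smad4* turned to -0.11 with library totals, limma at either pseudocount and NOISeq, and ran from -0.032 to 0.096 without the same samples. *Tgfb3* ran from -0.28 to 0.055 without them. The shift of the median gene with library totals, -0.15 and -0.16 for the comparisons with E16.5, goes with the change of scaling. The cause of the other changes was not tested.

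With no fold minimum the counts of the 10 genes became 3 up and 2 down (E10.5 to E14.5), 4 up and 4 down (E10.5 to E16.5) and 2 up and 3 down (E14.5 to E16.5), and those of the 59 other pathway genes 32 up and 12 down, 18 down, and 21 up and 11 down. Up from E10.5 to E14.5, limma on log2(FPKM + 1) and NOISeq each left 1 of the 10 genes, *Tgfbr2*. Down from E10.5 to E16.5, library totals gave 2, *Tgfbr1* and *Smad7*. Up from E14.5 to E16.5, library totals, limma at either pseudocount and NOISeq gave 0, and down, limma at either pseudocount gave 0, where *Tgfb2* had an adjusted p of 0.0655 and 0.0673. Of the other pathway genes, limma on log2(FPKM + 1) and NOISeq each called 1 as lower from E14.5 to E16.5.

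With single samples left out, the counts of the 10 genes ran from 1 to 3 up and 0 to 0 down (E10.5 to E14.5), 1 to 2 up and 1 to 2 down (E10.5 to E16.5), and 0 to 1 up and 0 to 1 down (E14.5 to E16.5). The added genes were *Tgfb2* without E14.5 replicate 1, *Tgfb3* from E10.5 to E16.5 without E10.5 replicate 1 and *Tgfb1* over the same stages without E10.5 replicate 3.

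The replicate block left every count of the 10 genes as it was, 2 up and 0 down, 1 up and 1 down, and 1 up and 1 down, and moved no other count by over 1.5 times. The mean correlation of the samples' deviations within their stages was -0.0164 for 9 pairs with the same number and 0.00917 for 18 pairs with different numbers, and 4 of 9 samples were closest to a sample of their own number, so the numbers were not taken as a pairing.

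Only 3 samples a stage limit all tests, and the ratios cannot reach an exact p under 0.1. Counting error matters most for *Tgfb1*, with 57 to 173 counts a sample.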
